A study of Homo sapiens with 23 samples.

Results

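The 10 zinc-dependent histone deacetylase genes of class I (HDAC1, HDAC2, HDAC3 and HDAC8) and class II (HDAC4, HDAC5, HDAC7 and HDAC9 of class IIa, HDAC6 and HDAC10 of class IIb) were followed through the deposited lists of bound regions. They were chosen by name from the 20033 protein-coding genes of GENCODE 44. The rule used no measured value, but earlier results of these data were known when it was made. Each gene was read as its body with 1000 bp on both sides. SW480, a human colorectal cancer epithelial line, was treated for 12 to 16 hours with 10 mM sodium propionate (NaPr) or 1 mM sodium butyrate (NaBu), or left untreated, and chromatin was immunoprecipitated (ChIP-seq) with antibodies to lysine 18 of histone H3 or lysine 12 of histone H4 carrying a propionyl (H3K18pr, H4K12pr), butyryl (H3K18bu, H4K12bu) or acetyl (H3K18ac, H4K12ac) group. Propionyl marks were mapped in NaPr-treated cells, butyryl marks in NaBu-treated cells, and both acetyl marks in NaPr-treated, NaBu-treated and untreated cells. This gave 10 groups of 2 libraries, 20 in all, beside 3 input libraries of sheared chromatin, 1 per treatment. All groups come from this single cell line, which serves as a model of colorectal cancer cells only. The sources do not say whether replicates were separate cultures, so p-values measure only the spread between these libraries.

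Histone deacetylases remove acetyl groups, and to differing degrees longer acyl groups, from lysines. Class I enzymes are mostly nuclear and act inside co-repressor complexes: HDAC1 and HDAC2 in Sin3, NuRD and CoREST, HDAC3 in NCoR/SMRT, while HDAC8 works largely alone and deacetylates cohesin. Class IIa enzymes have little activity of their own, shuttle between nucleus and cytoplasm and bind MEF2 transcription factors. HDAC6 deacetylates tubulin in the cytoplasm and HDAC10 deacetylates polyamines. Butyrate, and more weakly propionate, inhibits class I and several class II enzymes, so some of these genes, not all, encode proteins that both treatments can act on. In the colon these fatty acids come from microbial fermentation of fibre.

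Every list was called by the authors separately, and the lists differed in length from 8158 to 208823 regions in the immunoprecipitated libraries. The 4 butyryl lists were short (8158 to 22497 regions), and the second replicate of H4K12ac in NaBu held 11680 regions against 88658 in the first. The first replicate of H3K18ac in NaPr held 202787 regions against 95194 in the second. Library read totals are not in the lists, and the background estimated from fold and p-value was 3.88 to 4.47 fragments per kb in the NaBu libraries, 3.94 to 8.92 in the propionyl libraries and 12.0 to 40.6 in the other acetyl libraries. Names of the lists carry a number that is read here as a batch tag, though the sample labels do not say what it stands for. It puts the propionyl libraries in a first batch, the NaPr and untreated acetyl libraries in another and all NaBu libraries in the last. A propionyl-to-acetyl or a NaBu-to-untreated difference and the batch tag therefore cannot be told apart. Of 12 epithelial marker genes, 4 to 12 had an occupied start in each immunoprecipitated library, against 0 to 4 of 13 markers of other cell types. The lists were mixed. KRT18 was occupied in all 20, but CDX1 only in H4K12pr replicate 1 and H3K18ac NaBu replicate 1. Of the markers of other cell types, CD14 was occupied in every propionyl and every H3K18ac library, and COL1A1 in every propionyl library.

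Sequences around the starts that the results turn on are shown first, because the occupied place was often not the annotated start. A start is the first base of the Ensembl canonical transcript. It was called occupied where a region shared at least 1 bp with the 500 bp on either side. The promoters below are from RefSeq (GRCh38.p14), 250 bp before and 50 bp after a RefSeq start, printed 5′ to 3′ on the gene's strand, and 9 of the 10 members had an entry (HDAC5 had none). Capitals mark matches to 7 motifs, on either strand and with overlaps counted. These are the GC box (letters GGGCGG), which 45.0% of all 35116 promoters of this length hold, the CCAAT box (34.6% hold it), the E-box (letters CACGTG, 7.26% of promoters), the AP-1 site (letters TGANTCA, 7.71% of promoters), the ETS site (letters CCGGAAG, 10.3% of promoters), the NRF1 palindrome (1.24% of promoters) and the TATA box (letters TATAAA, 11.5% of promoters). HDAC1 lies on chr1:32292083-32333635 (plus strand), HDAC7 on chr12:47782722-47833132 (minus), HDAC4 on chr2:239048168-239401654 (minus), HDAC9 on chr7:18086949-19002416 (plus) and HDAC6 on chrX:48801377-48824982 (plus), all in hg38. The HDAC1 and HDAC7 promoters contrast a start rich in GC boxes with one that holds none of the 7 motifs.
HDAC1 start: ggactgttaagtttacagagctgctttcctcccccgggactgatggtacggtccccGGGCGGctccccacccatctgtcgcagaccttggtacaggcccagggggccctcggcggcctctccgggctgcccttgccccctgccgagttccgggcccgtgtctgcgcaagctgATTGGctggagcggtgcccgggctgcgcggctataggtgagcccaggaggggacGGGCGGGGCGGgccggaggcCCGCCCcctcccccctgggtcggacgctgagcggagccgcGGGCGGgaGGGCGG
HDAC7 start: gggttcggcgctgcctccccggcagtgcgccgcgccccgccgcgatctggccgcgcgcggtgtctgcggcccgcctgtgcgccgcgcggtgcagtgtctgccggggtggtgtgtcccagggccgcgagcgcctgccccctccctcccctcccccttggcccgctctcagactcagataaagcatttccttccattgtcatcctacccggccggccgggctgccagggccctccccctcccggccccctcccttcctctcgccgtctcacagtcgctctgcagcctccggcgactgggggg
For HDAC4 the CpG-rich RefSeq start 629 bp before the canonical one is set beside 200 bp of intron 2 (hg38, minus strand) centred on the region summit found in all 20 immunoprecipitated libraries.
HDAC4 CpG-rich start: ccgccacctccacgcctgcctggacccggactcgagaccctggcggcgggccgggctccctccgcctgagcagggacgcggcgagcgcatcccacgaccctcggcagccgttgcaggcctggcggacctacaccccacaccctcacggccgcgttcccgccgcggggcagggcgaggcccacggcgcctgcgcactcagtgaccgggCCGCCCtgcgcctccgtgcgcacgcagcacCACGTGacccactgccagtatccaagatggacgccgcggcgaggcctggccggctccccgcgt
HDAC4 intron 2: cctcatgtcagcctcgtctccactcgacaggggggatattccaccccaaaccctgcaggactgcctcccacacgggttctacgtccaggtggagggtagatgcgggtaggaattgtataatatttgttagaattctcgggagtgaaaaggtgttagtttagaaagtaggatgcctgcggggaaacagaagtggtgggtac
For HDAC9 the canonical start was rarely occupied, and it is followed here by the CpG-rich start 408924 bp before it and by the start 13521 bp after it, which was occupied in 19 libraries.
HDAC9 canonical start: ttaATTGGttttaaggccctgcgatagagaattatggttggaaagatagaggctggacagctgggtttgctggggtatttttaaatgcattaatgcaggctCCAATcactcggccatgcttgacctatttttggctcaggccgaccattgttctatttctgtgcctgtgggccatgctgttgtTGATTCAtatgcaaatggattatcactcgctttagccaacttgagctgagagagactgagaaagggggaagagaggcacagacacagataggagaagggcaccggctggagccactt
HDAC9 CpG-rich start: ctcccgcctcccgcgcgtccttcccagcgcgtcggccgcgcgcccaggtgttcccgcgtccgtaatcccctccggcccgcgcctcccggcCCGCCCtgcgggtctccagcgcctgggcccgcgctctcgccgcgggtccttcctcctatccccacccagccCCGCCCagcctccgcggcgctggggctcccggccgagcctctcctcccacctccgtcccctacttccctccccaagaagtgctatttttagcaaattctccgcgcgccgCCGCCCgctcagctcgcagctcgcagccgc
HDAC9 downstream start: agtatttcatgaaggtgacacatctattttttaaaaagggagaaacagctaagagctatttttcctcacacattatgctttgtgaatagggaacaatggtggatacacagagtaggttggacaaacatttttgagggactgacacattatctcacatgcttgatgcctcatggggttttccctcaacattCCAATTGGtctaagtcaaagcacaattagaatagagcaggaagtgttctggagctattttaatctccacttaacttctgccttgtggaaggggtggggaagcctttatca
For HDAC6 the canonical start is set beside the RefSeq start 669 bp before it.
HDAC6 canonical start: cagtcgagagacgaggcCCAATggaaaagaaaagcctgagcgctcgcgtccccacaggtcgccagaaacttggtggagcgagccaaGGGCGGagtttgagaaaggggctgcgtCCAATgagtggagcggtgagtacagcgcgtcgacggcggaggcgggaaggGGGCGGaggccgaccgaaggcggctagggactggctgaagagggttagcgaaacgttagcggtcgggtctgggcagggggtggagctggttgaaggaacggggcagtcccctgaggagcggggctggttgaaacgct
HDAC6 upstream start: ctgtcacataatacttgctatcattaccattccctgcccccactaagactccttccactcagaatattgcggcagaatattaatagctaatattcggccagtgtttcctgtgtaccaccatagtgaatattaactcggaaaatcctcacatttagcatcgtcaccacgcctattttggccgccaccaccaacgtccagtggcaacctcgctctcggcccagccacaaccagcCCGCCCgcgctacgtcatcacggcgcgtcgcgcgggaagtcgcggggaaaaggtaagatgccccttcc
The HDAC1 promoter holds 6 GC boxes and 28 CpG dinucleotides at 73.7% GC, against a median of 14 CpG and 58.7% GC over all promoters. The HDAC7 promoter is equally GC-rich (74.7%, 33 CpG) without a GC box. The downstream HDAC9 start is the opposite, with 40% GC and 0 CpG. A match to these letters is a description and not a binding site.

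Members' starts were occupied more often than those of protein-coding genes in general. Of the 200 combinations of 10 members and 20 immunoprecipitated libraries, 118 (59%) were occupied, while the mean share over all protein-coding genes was 39.7%, ranging from 5.81% to 67.2% between libraries. The share of members lay above the share of all genes in 16 of 20 libraries. With regions over an input region removed, the mean shares were 46.25% for class I and 40% for class II. Members then lay under all genes also in H3K18pr replicate 1, H4K12pr replicate 2 and H4K12ac NaPr replicate 1. At the 5′ end of the gene the means were 43.75% and 48.3%. There, members lay under all genes only in the H4K12ac libraries from treated cells. HDAC2 was occupied in 16 libraries, HDAC7 and HDAC6 in 15, HDAC4 in 14, HDAC3 in 13, HDAC1 in 12, HDAC5 and HDAC10 in 11, HDAC8 in 7 and HDAC9 in 4. For comparison, 11% of all protein-coding genes were occupied in at least 16 libraries, 33.8% in at least 12 and 66.3% in at least 4, and 19.8% in none. In the inputs, the starts of HDAC3 (1.79-fold) and HDAC4 (1.70-fold) were occupied in the untreated input and no other member start was occupied in any input. The untreated input did hold a 1.72-fold region within 1 kb of the HDAC7 summit that recurred 558 bp before its start, and regions at that summit overlapped it in part of the libraries.

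**Figure D1:**
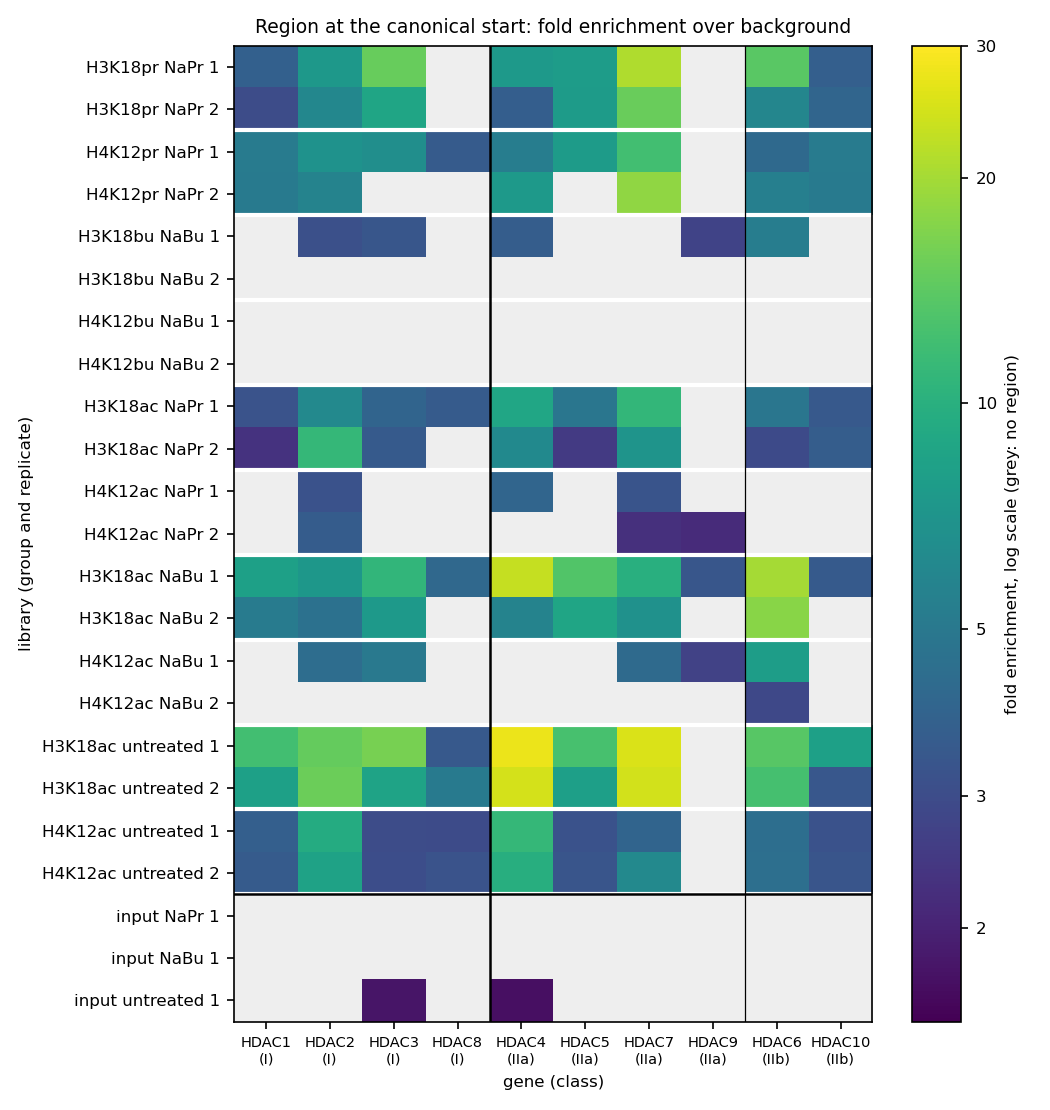
Fold enrichment (deposited column, linear ratio over background) of the strongest region at the canonical start of each member (columns, with class) in every library (rows, group and replicate, inputs last), with empty cells where the start was not occupied. HDAC9 is filled in 4 of 20 immunoprecipitated libraries and HDAC2 in 16, and 3 of the 4 butyryl rows are empty.

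Fold enrichment here is the deposited ratio of pileup to local background at the region that was best by p-value. Among class I genes, the HDAC1 start carried enrichments of 3.77 and 3.00 for H3K18pr, 5.20 and 5.13 for H4K12pr, 3.24 and 2.32 for H3K18ac NaPr, 8.22 and 5.22 for H3K18ac NaBu, 12.1 and 8.24 for untreated H3K18ac, and 3.70 and 3.54 for untreated H4K12ac. It was not occupied in any butyryl library, nor in any H4K12ac library from treated cells. HDAC2, the close paralogue of HDAC1, reached 14.8- and 15.4-fold in untreated H3K18ac and was occupied in all 4 acetyl libraries of NaPr-treated cells at 3.19- to 11-fold, and its promoter (64% GC, 24 CpG) holds none of the 7 motifs. HDAC3 reached 16.3-fold in untreated H3K18ac replicate 1 and 14.9-fold in H3K18pr replicate 1, but 24 of its 50 regions (48%) overlapped a region of an input, and its most recurrent summit lies 122 bp from the start of RELL2, a gene read in the opposite direction. HDAC8 was the weakest class I start, at 2.99- to 5.07-fold in the 7 libraries that held it, which were the 4 untreated acetyl libraries and the first replicates of H4K12pr, H3K18ac NaPr and H3K18ac NaBu. A further gene, ENSG00000285547, starts within 1000 bp of it, so the region cannot be assigned to HDAC8 alone.

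Among class IIa genes, HDAC7 had the highest propionyl fold of any member at its canonical start, 21.0- and 15.1-fold in H3K18pr and 12.1- and 18.1-fold in H4K12pr. In NaPr the acetyl marks gave 10.9- and 7.09-fold (H3K18ac) and 3.27- and 2.28-fold (H4K12ac). Untreated H3K18ac was higher again, 25.4- and 24.3-fold. HDAC4 reached 27.5- and 24.8-fold in untreated H3K18ac and 10.99- and 9.78-fold in untreated H4K12ac, while the 2 H3K18ac NaBu replicates differed widely (23.1- and 5.74-fold) and neither H4K12ac NaBu library held its start. The antisense gene HDAC4-AS1 starts within 1000 bp, and ChIP signal has no strand. HDAC5 was occupied in all H3K18ac libraries, at 2.50- to 13.3-fold, and in no butyryl library. HDAC9 was occupied at its canonical start only in H3K18bu replicate 1 (2.74-fold), H4K12ac NaPr replicate 2 (2.16-fold), H3K18ac NaBu replicate 1 (3.34-fold) and H4K12ac NaBu replicate 1 (2.70-fold), in no group in both replicates.

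In class IIb, HDAC6 was the only member whose start was occupied in all 4 acetyl libraries of NaBu-treated cells. H3K18ac NaBu gave 20.02- and 17.6-fold, H4K12ac NaBu 7.99- and 2.87-fold, and H3K18bu replicate 1 5.34-fold, the highest value at a canonical start in a butyryl library. Untreated H3K18ac gave 13.8- and 12.5-fold and untreated H4K12ac 4.44- and 4.46-fold. HDAC10 stayed between 3.17- and 5.20-fold apart from 8.26-fold in untreated H3K18ac replicate 1, and its 300 bp promoter is the richest of the members in GC (77%, 40 CpG, 4 GC boxes). In the H4K12pr libraries HDAC10 and HDAC1 carried the same enrichments at their starts (5.20- and 5.13-fold).

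Covering of gene bodies separated the members by another order. HDAC10, HDAC7 and HDAC4 were the most covered, with medians over the 20 immunoprecipitated libraries of 16.1%, 11.8% and 8.01% of their bases, and HDAC9 (0.312%) and HDAC8 (0.376%) the least. H4K12pr covered 57.8% and 36.6% of HDAC7, 49.97% and 33.97% of HDAC10, 38.3% and 17.2% of HDAC5 and 24.1% and 13.04% of HDAC4. H3K18pr, with the same treatment and batch tag, covered 18.8% and 15.4%, 16.8% and 15.3%, 12.6% and 11.6%, and 9.32% and 6.34% of these genes. Each of the 4 was thus lower in both H3K18pr libraries than in either H4K12pr library. The median over all protein-coding genes moved the same way, 3.27% and 2.60% with H3K18pr against 6.98% and 4.28% with H4K12pr. H4K12ac in NaPr-treated cells left HDAC10 uncovered in both libraries and covered 0.697% and 2.00% of HDAC5, against 26.2% and 19.1% of HDAC10 and 17.1% and 17.0% of HDAC5 in untreated cells. Here too the median over all protein-coding genes was lower, 1.69% and 1.27% in NaPr-treated against 5.75% and 5.15% in untreated cells.

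**Figure D2:**
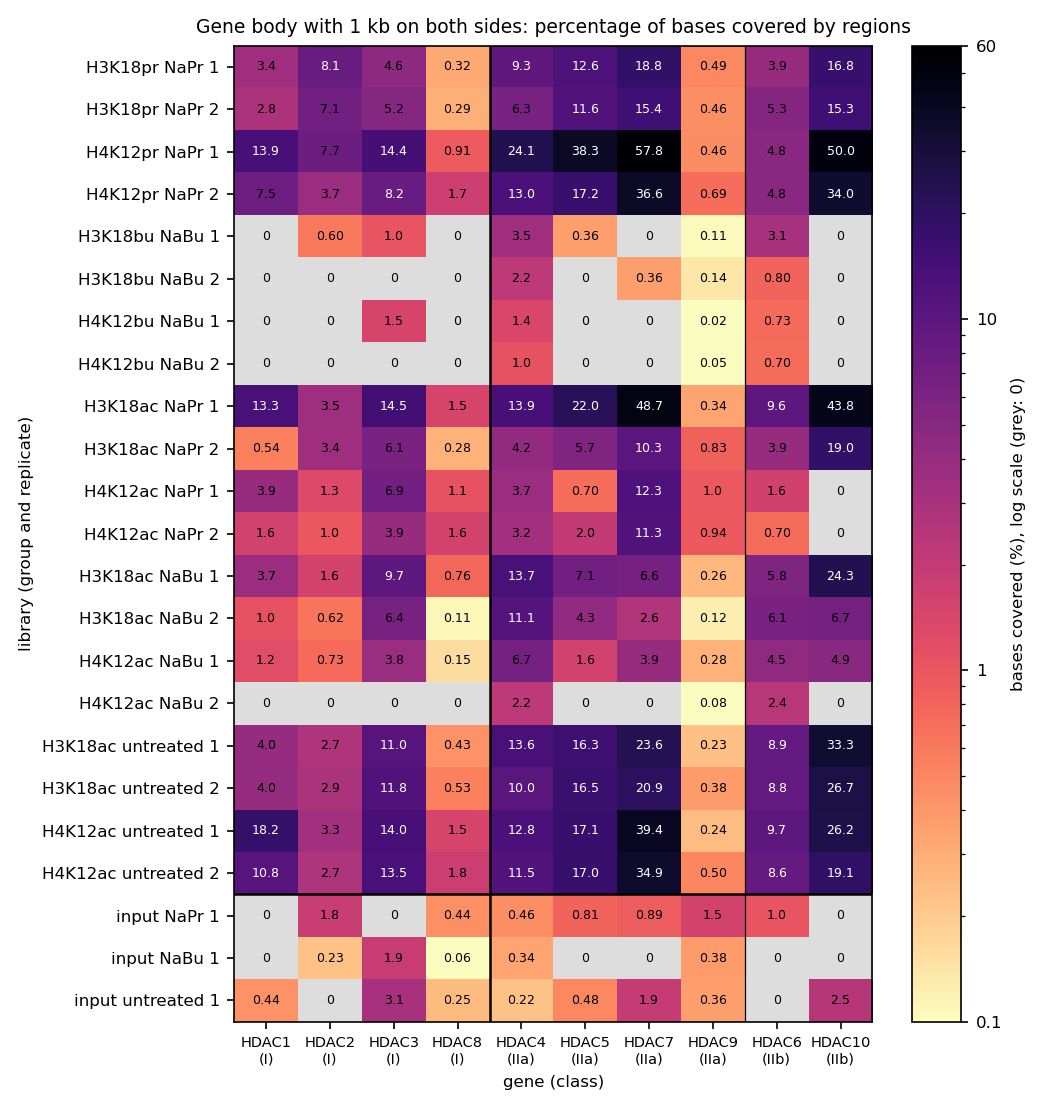
Percentage of the bases of each member's body, with 1 kb on both sides, that regions covered (colour and printed value) by gene (columns) and library (rows, inputs last). H4K12pr replicate 1 covers 57.8% of HDAC7, and the 4 butyryl rows stay at or under 3.45%.

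The butyryl libraries covered only parts of a few members. HDAC4 was covered at 3.45% and 2.18% in H3K18bu and 1.40% and 1.05% in H4K12bu, and HDAC6 at 3.11%, 0.797%, 0.726% and 0.703%. HDAC9 followed at 0.107%, 0.137%, 0.0231% and 0.0504%. HDAC1, HDAC8 and HDAC10 held no region in any butyryl library. Only HDAC4, HDAC6 and HDAC9 held a region in all 20 immunoprecipitated libraries. The number of regions per library ran from 10 to 110 in HDAC4 (median 38) and from 1 to 34 in HDAC9 (median 7). HDAC9, at 915 kb the longest member, held 46, 19 and 13 regions in the NaPr, NaBu and untreated inputs, more than most immunoprecipitated libraries, yet only 3 of its 187 immunoprecipitated regions overlapped an input region. HDAC8 held 1 to 4 regions per input. In both of these long genes the counts overlapped those of the inputs.

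Most HDAC4 regions lay away from its start. Of its 890 regions in the immunoprecipitated libraries, 871 had their summit in an intron of the canonical transcript. A region within 1 kb of the summit at chr2:239247315 in intron 2, 153705 bp after the canonical start, was found in all 20 libraries and within that distance in no input, although the NaBu input held a region of 4.40-fold that ended 151374 bp after the start, inside the span of the merged regions. The fold at the summit in the propionyl libraries was 55.2 and 32.1 (H3K18pr) and 19.8 and 17.5 (H4K12pr), and in the butyryl libraries 5.43 and 4.73 (H3K18bu) and 5.48 and 5.45 (H4K12bu). Untreated cells gave 45.5 and 25.3 for H3K18ac and 7.52 and 7.71 for H4K12ac. The NaBu acetyl libraries gave 17.9, 17.0, 12.1 and 3.76, and the NaPr acetyl libraries 9.25, 15.1, 5.27 and 4.35. By fold, the H3K18pr and untreated H3K18ac libraries were thus highest at this place, and the 4 butyryl values overlapped the lower acetyl ones. By p-value the region ranked between 210 and 3690 within its own list, and the order of libraries differed. Untreated H3K18ac ranked 210 and 330, H4K12ac NaBu replicate 1 298, H3K18pr 373 and 529, and H4K12bu replicate 2 373. Another 4 intronic summits of HDAC4 recurred in 19 libraries. The merged span of the one 152530 bp after the start overlaps that of the summit above and met a region of 1 input. The span of the one at 175084 bp met regions of 2 inputs. Those at 148559 and 133121 bp met none.

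Some of these intronic places coincide with RefSeq starts of shorter HDAC4 transcripts, which were looked up after the values had been seen. The start 133506 bp into the gene was occupied in 18 libraries, including all 4 butyryl libraries (5.52-, 6.51-, 4.50- and 3.56-fold) and all 4 acetyl libraries of NaBu-treated cells (12.6-, 13.1-, 7.13- and 4.72-fold), and in no input. It was missing from both H4K12ac NaPr libraries. The CpG-rich start 629 bp before the canonical start was occupied in 14 libraries, of which 1 was butyryl and 2 were acetyl from NaBu-treated cells.

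HDAC9 showed the same kind of shift. The canonical start (47.3% GC, 5 CpG) was occupied in 4 libraries and the CpG-rich start far upstream (75% GC, 41 CpG) in 3, while the start 13521 bp downstream, which holds 0 CpG, was occupied in 19 libraries and in no input. The merged span of the regions around it did meet a region of 1 input. At the downstream start the propionyl fold was 15.7 and 10.97 (H3K18pr) and 7.09 and 7.23 (H4K12pr). The butyryl fold was lower, 5.10 and 5.28 with the H3K18bu antibody and 3.06 and 2.42 with H4K12bu. Among acetyl libraries it was highest in H3K18ac NaPr replicate 2 (12.2) and 3.03 to 7.12 in the 4 untreated libraries. The only library without it was H4K12ac NaBu replicate 1. In 12 libraries at least 2 regions lay near this start with a gap of 127 to 534 bp (median 175.5 bp) between them. In H3K18pr replicate 1 the gap ran from 14683 to 14856 bp after the canonical start, beyond the downstream start. In the other libraries it began 13308 to 13360 bp after the canonical start, just before the downstream one.

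HDAC6 was occupied on either side of a gap near its canonical start. The RefSeq start 669 bp before the canonical start was occupied in 17 libraries, all 4 butyryl libraries among them (2.69-, 4.04-, 3.52- and 3.30-fold), against 1 butyryl library at the canonical start. It was missing from H3K18pr replicate 2 and from both H4K12ac NaPr libraries. In 13 libraries the regions on the 2 sides lay 238 to 834 bp apart (median 508 bp). Neither side was occupied in any input. HDAC10 is compact, and its most recurrent summit, in 13 libraries, lies 148 bp from the start of TUBGCP6 beyond its 3′ end, so the coverage of HDAC10 includes that promoter.

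**Figure D3:**
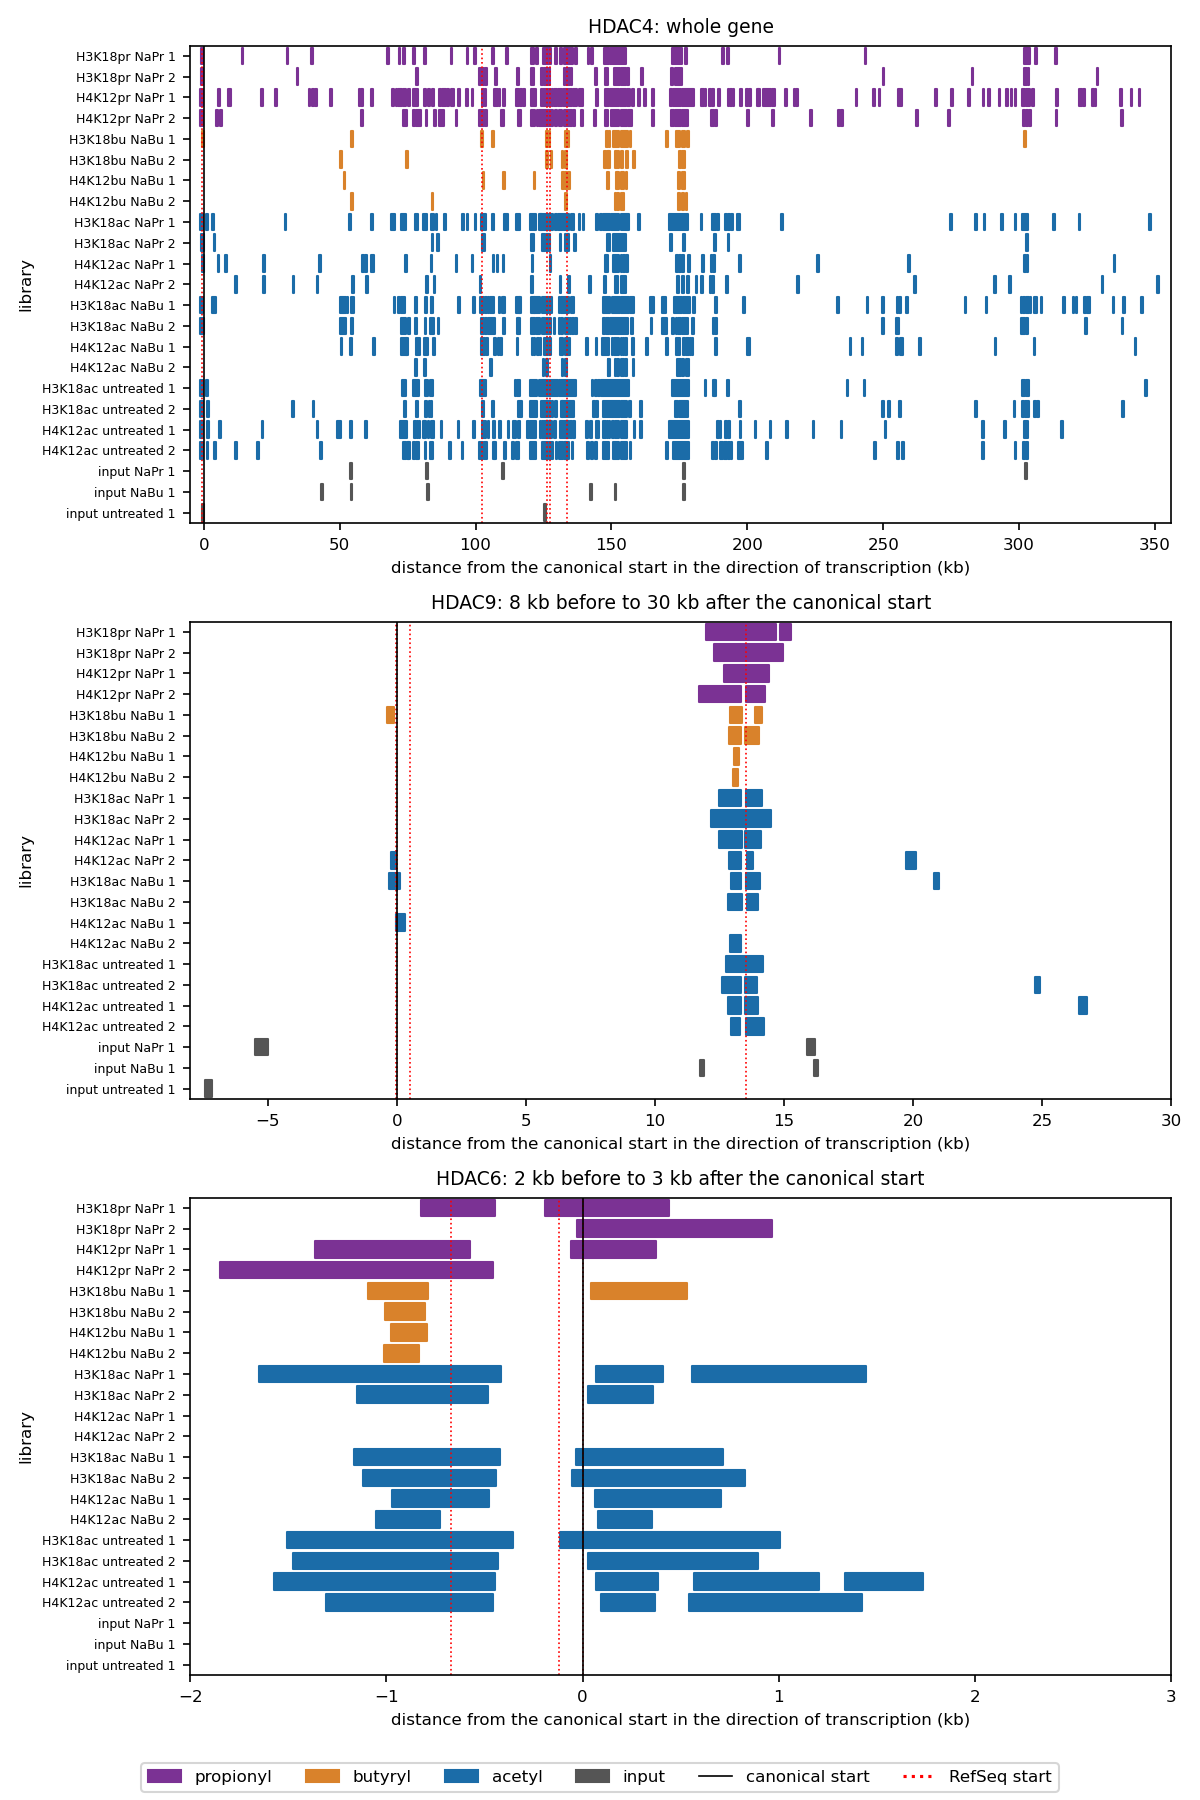
Regions (bars, 1 row per library, inputs last) by distance in kb from the canonical start in the direction of transcription for HDAC4 (whole gene), HDAC9 (around its canonical and downstream starts) and HDAC6. Short regions are drawn wider than to scale in the HDAC4 panel so that they can be seen. In HDAC4 the summit 153705 bp after the start is present in all 20 immunoprecipitated rows and, within 1 kb, in no input, and in HDAC9 the cluster about 13 kb downstream is present in 19.

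To compare marks without the length of a list entering, genes were ranked in each library by the best p-value at their start and the best 1164, the number in the shortest list, were scored from 100 (best) down to 0 (not among them). Differences were tested with limma over the 3180 genes above 0 in at least 2 libraries, with Benjamini-Hochberg adjustment. HDAC2, HDAC4, HDAC7 and HDAC6 passed this filter. The other 6 members were among the best 1164 starts in fewer than 2 libraries, so the score says nothing of them. A second reading kept every gene with a region at its start as a percentile among all protein-coding genes, and there 14657 genes and all 10 members were tested, but list length enters it.

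Between propionyl and acetyl marks in NaPr-treated cells, HDAC7 was higher with propionyl. Its scores with propionyl were 31.5 and 53.6 (H3K18pr) and 23.3 and 76.7 (H4K12pr), and with acetyl 19.1 and 26.7 (H3K18ac) and 0 and 0 (H4K12ac). Within each site the groups did not overlap, but H4K12pr replicate 1 (23.3) lay under H3K18ac replicate 2 (26.7). The mean difference was 34.8 points (SE 11.1, limma adjusted p = 0.0336), and 1 of 4 members was called where 26.5% of all genes tested were (15% higher, 11.5% lower). The call was lost when any of 5 libraries was left out, namely replicate 2 of H3K18pr and of H4K12pr, replicate 1 of H3K18ac, and either replicate of H4K12ac, with the difference between 21.5 and 48.2 points and an adjusted p of up to 0.125 in limma over all single omissions. With regions over an input region removed, HDAC7 no longer passed the filter, so its difference could not be tested without such regions. HDAC2 (-27.2, SE 11.6, limma adjusted p = 0.111) and HDAC4 (-20.8, SE 12.1, adjusted p = 0.275) were not called, and HDAC6 was at 0 in all 8 libraries.
With every gene kept, HDAC7 differed by only 2.80 percentile points, while HDAC1 (36.5, SE 5.51, limma adjusted p = 0.000753) and HDAC10 (35.6, SE 9.38, adjusted p = 0.0223) rose, where 15% of genes were called (12% higher, 2.95% lower). Both differences came from H4K12. The HDAC1 percentile was 70.6 and 71.6 in H4K12pr against 0 and 0 in H4K12ac NaPr, and 55.7 and 57.7 in H3K18pr against 54.8 and 54.9 in H3K18ac NaPr.

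Between butyryl and acetyl marks in NaBu-treated cells, which share a batch tag, no member was called by the score, where 7.2% of genes were. HDAC6 was nearest (-17.998, SE 8.06, unadjusted p = 0.0442, limma adjusted p = 0.248), with scores of 33.5 and 0 in H3K18bu and 0 and 0 in H4K12bu against 23.7, 48.6, 33.2 and 0 in the acetyl libraries. With every gene kept, HDAC1 (-39.3), HDAC5 (-44.8), HDAC7 (-62.1) and HDAC6 (-70.2) fell with butyryl, at limma adjusted p = 0.00055, 0.0344, 0.00465 and 0.00548, where 22.7% of genes were called, nearly all lower (0.0478% higher). The butyryl lists were also the shortest, and the part of list length in these falls was not tested.

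Between NaPr-treated and untreated cells, acetyl marks at members' starts differed in none of the 4 tested, where 6.42% of genes were called. HDAC2 had the largest difference, 20.4 points (SE 11.6, limma adjusted p = 0.443), with scores of 53.9 in H3K18ac NaPr replicate 2 and 53.5 in H4K12ac NaPr replicate 2, but 1.5 in H4K12ac NaPr replicate 1. With every gene kept, HDAC1 fell by 42.1 percentile points (limma adjusted p = 0.000734), where 14.4% of genes were called (13.9% lower, 0.546% higher).

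Between NaBu-treated and untreated cells, the scores of HDAC6 in the acetyl libraries were 23.7, 48.6, 33.2 and 0 after NaBu and 0 in all 4 untreated libraries. The difference was 26.4 points (SE 8.06, limma adjusted p = 0.0335), and 21% of genes were called (10.4% higher, 10.6% lower), with HDAC6 the 1 member of 4. Its score was above 0 in 4 libraries, all from NaBu-treated cells, so it passed the filter on low scores only through the treatment where it was high, and this call supports no difference. With no filter it was not called (limma adjusted p = 0.0608). The NaBu values stood above the untreated ones in 3 of 4 libraries and equalled them in the second H4K12ac replicate, the short list. The call was lost when any of 6 libraries was left out (H3K18ac NaBu replicate 2, H4K12ac NaBu replicate 1 and each untreated library), with adjusted p of up to 0.126 in limma. HDAC4 went from 0, 30.2, 63.5 and 43.3 in the untreated libraries to a lower mean after NaBu (-22.7, SE 12.1, limma adjusted p = 0.238) and was not called. With every gene kept, HDAC1 (-30.3), HDAC8 (-41.7) and HDAC10 (-37.7) fell, at limma adjusted p = 0.00157, 0.0435 and 0.0095, where 32.8% of genes were called (31.6% lower, 1.19% higher), and HDAC6 (8.24) was not called. The NaPr and NaBu comparisons share the untreated libraries.

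Between histone sites, each pair within a batch tag, no member was called by the score, where 9.69% of genes were. With every gene kept, H3K18 exceeded H4K12 at HDAC1 by 23.5 percentile points (SE 3.49, limma adjusted p = 0.000555), at HDAC3 by 45.7 (SE 14.1, adjusted p = 0.0418), at HDAC5 by 40.6 (SE 8.71, adjusted p = 0.00719) and at HDAC6 by 30.8 (SE 9.38, adjusted p = 0.0407). Of all genes, 18.8% were called (17.9% higher with H3K18, 0.948% lower).

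Coverage of whole bodies, taken as a percentile among protein-coding genes of the same library, was added after the values had been seen. After NaBu, HDAC4 and HDAC6 stood higher among acetylated bodies. HDAC4 was at the 88.3, 91.5, 92.5 and 92.9 percentiles in the NaBu acetyl libraries and at 78.7, 72.7, 71.4 and 71.2 in the untreated ones, with no overlap, and the difference was 17.8 (SE 2.86, limma adjusted p = 0.00152). The call held whichever single library was left out, with differences of 16.3 to 19.3. HDAC6 was at 72.5, 83.8, 86.9 and 93.4 against 69.0, 69.3, 63.4 and 63.0, a difference of 17.98 (SE 5.40, limma adjusted p = 0.0423), also without overlap, but the call was lost when any of 6 libraries was left out (adjusted p of up to 0.163 in limma). Of all genes, 14.2% were called (4.19% higher, 9.98% lower), and 2 of 10 members were, both higher.
These are relative places and not more coverage. The percentage of HDAC4 covered was 13.7%, 11.1%, 6.69% and 2.19% after NaBu and 13.6%, 10.0%, 12.8% and 11.5% in untreated cells. In the NaBu acetyl libraries 80.7%, 64.5%, 70.2% and 25.7% of genes held any region, against 78.6% to 85.6% in the untreated ones, and a gene with a region gains percentile as fewer genes hold one. The part of this in the difference was not tested.

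Between butyryl and acetyl in NaBu, the percentile of HDAC9 bodies was higher and that of HDAC1, HDAC8 and HDAC10 lower with butyryl. HDAC9 was at 66.9, 70.5, 79.4 and 82.1 against 22.4, 37.0, 34.3 and 75.0, overlapping in the second H4K12ac replicate, and the difference was 32.6 (SE 8.22, limma adjusted p = 0.0135). This again is a relative place, since the percentage of HDAC9 covered was 0.107%, 0.137%, 0.0231% and 0.0504% with butyryl and 0.259%, 0.123%, 0.284% and 0.0799% with acetyl. HDAC10, at 0 in all 4 butyryl libraries and at 95.3, 85.2, 88.4 and 0 in the acetyl ones, fell by 67.2 (SE 13.6, limma adjusted p = 0.00519). HDAC1 fell by 43.2 (SE 11.6, limma adjusted p = 0.0173) and HDAC8 by 24.6 (SE 6.73, limma adjusted p = 0.0184), again to 0 in all 4 butyryl libraries. Of all genes, 27.5% were called (24.8% lower, 2.69% higher), against 4 of 10 members, and all 4 calls held whichever single library was left out. The butyryl lists held a region in 18.3% to 34.3% of genes, fewer than 3 of the 4 acetyl lists, and the part of this in the differences was not tested. The other 3 comparisons called no member by body percentile, where 2.54%, 1.98% and 11.4% of genes were called.

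**Figure D4:**
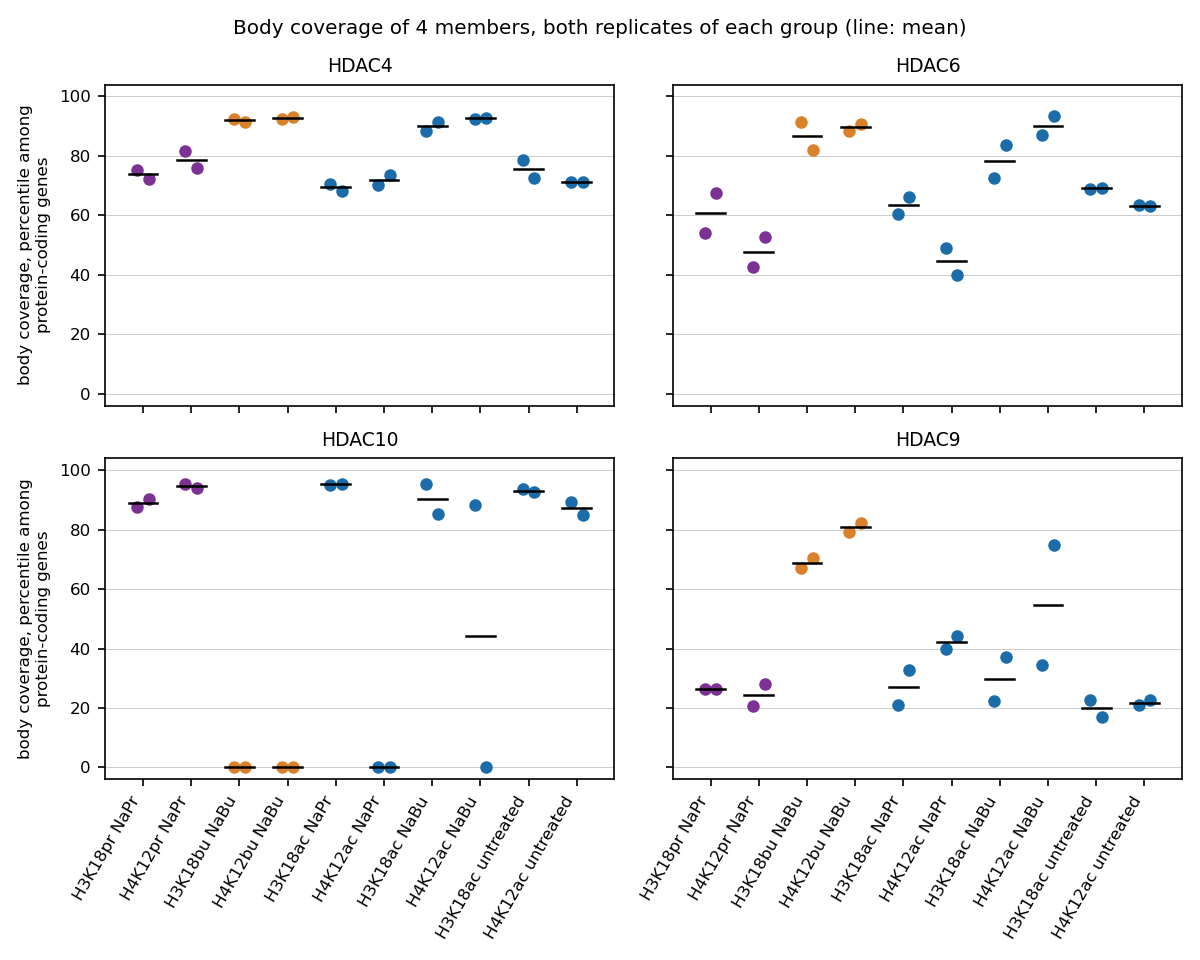
Percentile of body coverage among protein-coding genes (0 to 100) for 4 members in each group, with 2 points for the replicates and a line at their mean. HDAC4 lies at 88.3 to 93.1 in the NaBu-treated groups and at 71.2 to 78.7 in the untreated ones, and HDAC10 lies at 0 in both butyryl groups.

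A stricter count took starts occupied in both replicates of a group and in neither of the other. With H4K12pr but not H4K12ac in NaPr-treated cells there were 3 members (HDAC1, HDAC10 and HDAC6), where 20.2% of all genes were so, and none the other way (0.429% of genes). With H3K18ac but not H3K18bu in NaBu-treated cells there were 3 (HDAC1, HDAC7 and HDAC5), where 21.3% of genes were so, and with H4K12ac but not H4K12bu there was HDAC6 alone (3.76% of genes). With H4K12ac in untreated but not in NaPr-treated cells there were 6 (HDAC1, HDAC3, HDAC8, HDAC5, HDAC6 and HDAC10), where 29.9% of genes were so, and in untreated but not in NaBu-treated cells 5 (HDAC1, HDAC8, HDAC4, HDAC5 and HDAC10), where 31.7% were. H3K18ac in untreated but not in treated cells gave 0 members for NaPr (1.54% of genes) and 0 for NaBu (8.58%). Over all 4 treated-to-untreated pairs this made 11 of 40 (27.5%) against a mean of 17.9% of all genes. The reverse, occupied only after treatment, was found for 0 of 40, where the mean over all genes was 0.246%. Between sites, 8 of 50 (16.0%) were occupied with H3K18 only, against a mean of 8.72% of all genes. They were HDAC1, HDAC3, HDAC5, HDAC6 and HDAC10 in NaPr and HDAC1, HDAC4 and HDAC5 in NaBu, all of acetyl marks. With H4K12 only there were 0 of 50, where the mean over all genes was 0.846%, so both counts of 0 lay near the share of all genes.

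Class I and class II starts were occupied at like rates. The mean over 20 libraries was 60% for the 4 class I genes and 58.3% for the 6 class II genes, a difference of 1.67 percentage points with a between-replicate SD of 10.2. Class I was above class II in 7 libraries, below in 7 and equal in 6, and in the 4 untreated acetyl libraries class I was at 100% and class II at 83.3%, HDAC9 being the gene missing. In H3K18bu replicate 1 both classes stood at 50%, where 15.6% of all genes were occupied, and in the other 3 butyryl libraries both stood at 0%. When each list was shortened to its best 8158 regions, class I fell to 17.5% and class II to 30.0%, a difference of -12.5 points, below 0 in 14 libraries and above in 1. Members are not replicates and no test was made.

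**Figure D5:**
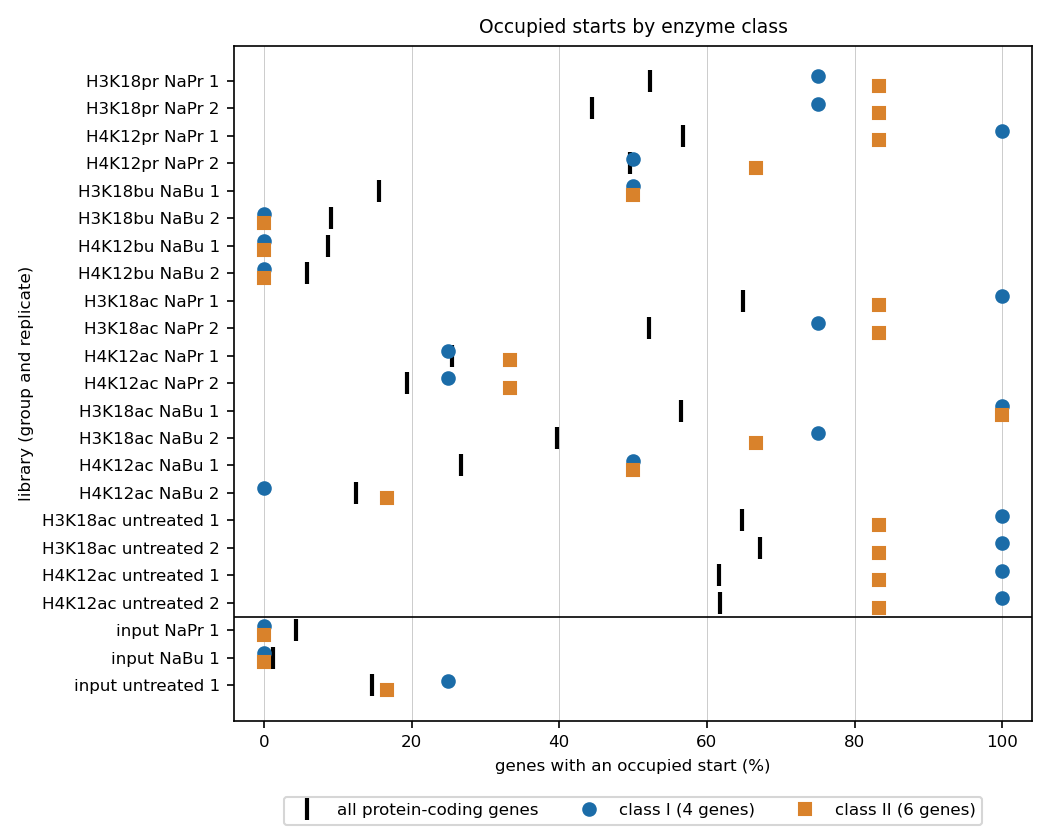
Percentage of class I (4 genes), class II (6 genes) and all protein-coding genes (20033) with an occupied start in each library, inputs last. Members of both classes lie above all genes in most libraries and at 0% in 3 of the 4 butyryl libraries.

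The partners of these enzymes, 47 genes of the Sin3, NuRD, CoREST, NCoR/SMRT and MiDAC complexes with MEF2, 14-3-3 and related genes, were read in the same fits, and 16 of them passed the filter on the score. With propionyl against acetyl 6 were higher and 3 lower (26.5% of all genes were called), among them TBL1XR1, a part of NCoR/SMRT, at 58.3 points (SE 9.35), DNTTIP1 of MiDAC at 55.7 (SE 8.23), MIER1 at 54.5 (SE 12.5) and SUDS3 of Sin3 at -81.7 (SE 10.4). With butyryl against acetyl, where 7.2% of all genes were called, 0 were higher and 3 lower. They were ARID4A of Sin3 (-71.7, SE 5.84), YWHAG, a 14-3-3 protein (-46.1, SE 12.9), and MEF2A (-25.9, SE 4.91). After NaPr SUDS3 was higher (67.7, SE 10.4) and was the only call, where 6.42% of all genes were called. After NaBu ARID4A (64.3, SE 5.84) and MEF2A (24.6, SE 4.91) were higher and MEF2D (-42.0, SE 9.94) lower, where 21% of all genes were called. Whether a partner passed the filter only through the libraries where it was high was not checked for any of them. The calls of TBL1XR1, DNTTIP1, MIER1, SUDS3, ARID4A, MEF2A and the other partners are therefore given as values only. MEF2D was also the only partner called between sites, higher with H3K18 (33.1, SE 6.28), where 9.69% of all genes were called. The median difference over the 16 partners was 0.838, -6.16, 0, 0.827 and -3.76 points in the 5 comparisons in this order, against 0 in the first 4 and -0.116 in the last over all genes tested.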

How the data were processed

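ChIP-seq of 20 immunoprecipitated and 3 input libraries of SW480 cells was deposited as narrowPeak lists, 1 per library. The authors processed reads with an ENCODE-type pipeline on hg38. The submitters' processing notes name bcl2fastq 2.17.1, cutadapt 1.8.1, Bowtie2 2.3.1 and MACS2 2.1.0, and regions were called at p 0.01 and blacklist filtered. What each input was called against is not given in the sources used here. The deposited columns used are a fold ratio, a −log10 p-value and −log10 q-value, and the summit offset. All 2187390 regions fell within hg38 chromosome lengths.

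Regions were joined to GENCODE 44 bodies with 1000 bp on both sides and to canonical starts with 500 bp on either side (Python 3.11.15, pandas 2.3.3). The start-site score ranked genes by best −log10 p and kept the best 1164 in each library. The 10 group means were fitted in limma 3.58.1 (R 4.3.3, eBayes with trend) over 3180 genes above 0 in at least 2 libraries, called at adjusted p under 0.05. Inputs did not enter the fit. The code was tested on simulated data. Background fragments per kb were solved from fold and p-value under a Poisson model and are estimates, since read totals are not in the lists.

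All 10 members are named, and partners called with the largest differences, at most 4 per comparison. Members, partner and marker lists were chosen with earlier results of these data known. Alternatives changed the ranking column, window, overlap, q-value, start, filter, input overlap, list length and replicates. Replicate numbers were checked for pairing and did not pair the libraries.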

Additional observations from a re-analysis of the deposited data

Results flagged for a closer look

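In 5 cases the effect of a comparison on a member's start percentile, with every gene kept, differed between H3K18 and H4K12 by a limma interaction term over 14657 genes. For HDAC1 the H3K18 effect minus the H4K12 effect was -69.2 percentile points (SE 11, limma adjusted p = 0.00136) for propionyl against acetyl, -78.6 (adjusted p = 0.000858) for butyryl against acetyl, 56.6 (adjusted p = 0.00619) for NaPr against untreated and 80.4 (adjusted p = 0.00109) for NaBu against untreated. For HDAC10 it was -71.0 (SE 18.8, limma adjusted p = 0.0232) for propionyl against acetyl. The HDAC1 percentiles behind these values were 0 in all 4 H4K12ac libraries from treated cells, 76.0 and 64.9 in untreated H4K12ac, 54.8 and 54.9 in H3K18ac NaPr, 80.3 and 76.9 in H3K18ac NaBu and 65.7 and 71.7 in untreated H3K18ac. The 4 HDAC1 values share libraries and are not independent. By the start-site score, where list length does not enter, HDAC1 and HDAC10 were not tested, and no interaction was called among the 4 members that were. The nearest was HDAC4 for NaBu against untreated, at 61.4 points (SE 24.2, limma adjusted p = 0.255).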

How the results depend on the processing

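Members' calls depended on the setting more than their directions did. For propionyl against acetyl (1 member called of 4, 843 genes of 3180), 0 members were called when genes were ranked by fold, at q under 0.05, with at least 200 bp shared, at the 5′ end of the gene, with regions over input removed or by body percentile, and 2 with every gene kept or 1 kb on either side. Genes called became 2193, 445 and 466 with every gene kept, q under 0.05 and body percentile. HDAC7 turned to -1.28 by body percentile, and could not be tested at q under 0.05, at the 5′ end or with regions over input removed because it no longer passed the filter. Its difference was 30.1 by fold (limma adjusted p = 0.186). For butyryl against acetyl (0 members, 229 genes) 4 members were called with every gene kept and 4 by body percentile, and genes became 3328, 103 (q under 0.05), 145 (200 bp shared) and 5043. For NaPr against untreated (0 members, 204 genes) 1 member and 2115 genes were called with every gene kept, and 362 genes by body percentile. For NaBu against untreated (1 member, 667 genes) 2 members were called by fold (HDAC6 and HDAC4, the latter lower), 3 with every gene kept, 2 by body percentile and 0 at q under 0.05, with 200 bp shared, at the 5′ end or with no filter, and genes became 4809, 327 (q under 0.05) and 2595. With no filter, genes above 0 in at least 1 library were kept, since genes at 0 throughout could not be fitted. For H3K18 against H4K12 (0 members, 308 genes) 4 members and 2758 genes were called with every gene kept, and 167, 191 and 2080 genes at q under 0.05, with regions over input removed and by body percentile. With equal numbers of regions the class difference was -12.5. One-sided starts were then 0 of 40 acylated only, where 0.105% to 5.10% of all genes were so in the single pairs. Untreated only were 6 of 40, where 3.48% to 9.65% of all genes were so. H3K18 only were 3 of 50, where 0.519% to 5.02% of all genes were so. At the 5′ end 2 of 40 were acetyl only, where 0.549% to 19.7% of all genes were so. With 1 kb on either side 1 of 50 was H4K12 only, where 0.0399% to 3.80% of all genes were so. The cause was not tested in any of these.

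Leaving out each library in turn gave 0 to 1 members called for propionyl, 0 to 1 for butyryl, 0 for NaPr, 0 to 1 for NaBu and 0 for the sites, with 703 to 1005, 139 to 330, 134 to 385, 531 to 727 and 175 to 478 genes. By body percentile it gave 0 to 1, 4 to 6, 0 to 1, 1 to 7 and 0 to 3 members and 297 to 1221, 3706 to 8193, 186 to 1020, 1345 to 6338 and 1307 to 4443 genes. The class difference ran from 0.877 to 2.63. The replicate block changed no call among members, with 830, 211, 206, 661 and 272 genes called, or 429, 4975, 335, 2606 and 1981 by body percentile. Replicate numbers gave correlations of -0.152 to 0.0909 over 45 group pairs, so libraries share only a number. Short lists and unknown read totals limit what an unoccupied start can show.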
